A study of Mus musculus with 15 samples.

Results

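The genes described here carry and receive Wnt signals at the cell surface of mouse embryonic stem (ES) cells. They are the 19 Wnt ligands, the 10 Frizzled receptors, the coreceptors Lrp5, Lrp6 and Ryk, 4 secreted Frizzled-related proteins (Sfrp1, Sfrp2, Sfrp4 and Sfrp5), and Porcn and Wls, which prepare ligands for release. They were chosen by gene family and pathway role, with earlier results of these data known. All 38 were measured, among 19937 named genes. Wnt4 had 2 probe sets, and the one with the higher mean over the 15 arrays stood for it. Each of the others had 1.

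Total RNA of 15 samples was labelled with an Affymetrix whole-transcript kit and hybridised to 1 array each, giving 3 arrays in each of 5 groups. All cells came from a single 2i-adapted ES line whose Ctnnb1 gene, which encodes beta-catenin, carries a knocked-in biotin and 3xFLAG tag, together with the biotin ligase BirA. The 2iLIF group kept 3 µM CHIR99021, an inhibitor of the kinase GSK3, 1 µM PD0325901, an inhibitor of the kinase MEK, and the cytokine LIF. In the other groups LIF was left out for the last 24 h: 2i kept both inhibitors, CHIR kept CHIR99021 alone, PD03 kept PD0325901 alone, and DMSO kept neither and received the solvent. The 2iLIF and 2i groups thus differ in LIF, and every other group also lacked at least 1 inhibitor for those 24 h. A difference given for an inhibitor or LIF therefore compares cells that kept it with cells from which it was withdrawn. Values are log2 signals, each difference is a log2 difference between the means of 3 arrays with its standard error (SE), and a gene passed when its limma adjusted p over all 19937 genes was under 0.05.

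Wnt proteins are lipid-modified by Porcn, an acyltransferase of the endoplasmic reticulum, and carried to the cell surface by Wls. At a receiving cell they bind a Frizzled receptor together with Lrp5 or Lrp6, which keeps GSK3 and its partners from marking beta-catenin for degradation. Sfrp proteins resemble the extracellular part of Frizzled and bind Wnt proteins outside the cell. CHIR99021 acts below the receptors, at GSK3 itself. In ES cells Wnt signalling is known to favour self-renewal.

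Target genes were read first as a check on the inhibitors. Axin2, a feedback target of beta-catenin, was 1.45 ± 0.08 (SE) higher in CHIR than in DMSO and 1.53 ± 0.08 higher in 2i than in PD03. Dusp6, an ERK target, was at -1.72 ± 0.06 in PD03 minus DMSO and at -1.12 ± 0.06 in 2i minus CHIR. It was also lower with CHIR99021 alone, at -0.65 ± 0.06 in CHIR minus DMSO (adjusted p = 5.6e-07), and did not pass in 2i minus PD03 (-0.04 ± 0.06, adjusted p = 0.691). The mean of 9 ES cell markers lay between 11.63 and 11.76 on every array, but single markers moved in opposite directions. Nanog and Zfp42 had lower means in DMSO than in 2iLIF (11.74 and 12.72, 9.82 and 10.66). Utf1 and Lin28a had higher ones (12.51 and 11.57, 10.53 and 9.61). In PD03 minus DMSO 4 of the 9 were higher and 2 lower (66.7%, against 16.8% of all genes). The mean of 10 fibroblast and feeder markers lay between 6.36 and 6.56. In each of CHIR, PD03 and 2i 1 of the 10 was lower than in DMSO, against 10.8%, 8.15% and 11.9% of all genes. The mean of 5 neural markers lay between 7.89 and 8.04 in PD03, between 7.57 and 7.75 in DMSO and between 7.16 and 7.40 in the groups with CHIR99021. In PD03 minus DMSO 3 of these 5 were higher, against 8.67% of all genes. Sox1 and Neurod1 had lower means in PD03 than in DMSO (8.24 and 8.39, 6.01 and 6.24). In 2i minus PD03 all 5 were lower, against 9.44% of all genes. The 5 did not move alike: Neurod1, Pax6 and Sox1 had higher means in DMSO than in 2iLIF (6.24 and 5.13, 7.76 and 6.54, 8.39 and 8.08), while Tubb3 and Nes had lower ones (8.47 and 9.01, 7.41 and 7.53). The mean of 7 trophoblast markers was at most 6.58 in DMSO and 7.05 in 2iLIF on any array, with no overlap between these groups, and that of 6 streak and mesoderm markers ran from 6.69 to 6.82 and from 7.08 to 7.16. These shifts are not separate, since Eomes is in both lists, with means of 7.79 in DMSO and 9.59 in 2iLIF. Of the other trophoblast markers Tfap2c had 6.87 and 8.83, and Cdx2 5.89 and 5.91. Among the other streak markers Mixl1 had 6.61 and 6.76, and Mesp1 6.30 and 6.21. The part of these markers in the results on Wnt genes was not tested. In RNA from a whole culture, fewer cells with a transcript and less of it per cell cannot be told apart.

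Of the 38 genes, 17 passed in at least 1 of 7 comparisons, a share near that of all genes, of which 40.3% did. They were 8 of 10 Frizzled genes, 3 of 4 Sfrp genes, Lrp5 and Ryk, Porcn and Wls, and 2 of 19 ligands. Whether the families differ in this share was not tested. The other 21 had group means that spanned from 0.05 to 0.28. In CHIR minus DMSO 11 of the 38 passed, against a background of 20.8% of all genes: 6 were higher (background 10.0%) and 5 lower (background 10.8%). In PD03 minus DMSO 10 passed (background 16.8%), with 4 higher (background 8.67%) and 6 lower (background 8.15%). In 2i minus DMSO 11 passed (background 25.5%), with 4 higher (background 13.6%) and 7 lower (background 11.9%). In 2i minus CHIR 6 passed (background 9.46%), with 2 higher (background 5.70%) and 4 lower (background 3.76%). In 2i minus PD03 7 passed (background 19.5%), with 3 higher (background 10.1%) and 4 lower (background 9.44%). In 2iLIF minus 2i 9 passed (background 12.2%), with 1 higher (background 4.56%) and 8 lower (background 7.66%). The share of the 38 that passed was near the background in 2i minus PD03 and 2i minus DMSO. The median difference of the 38 stayed near 0 throughout, from -0.05 in 2iLIF minus 2i to 0.04 in 2i minus DMSO, where that of all genes was -0.01 and 0.02.

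**Figure D1:**
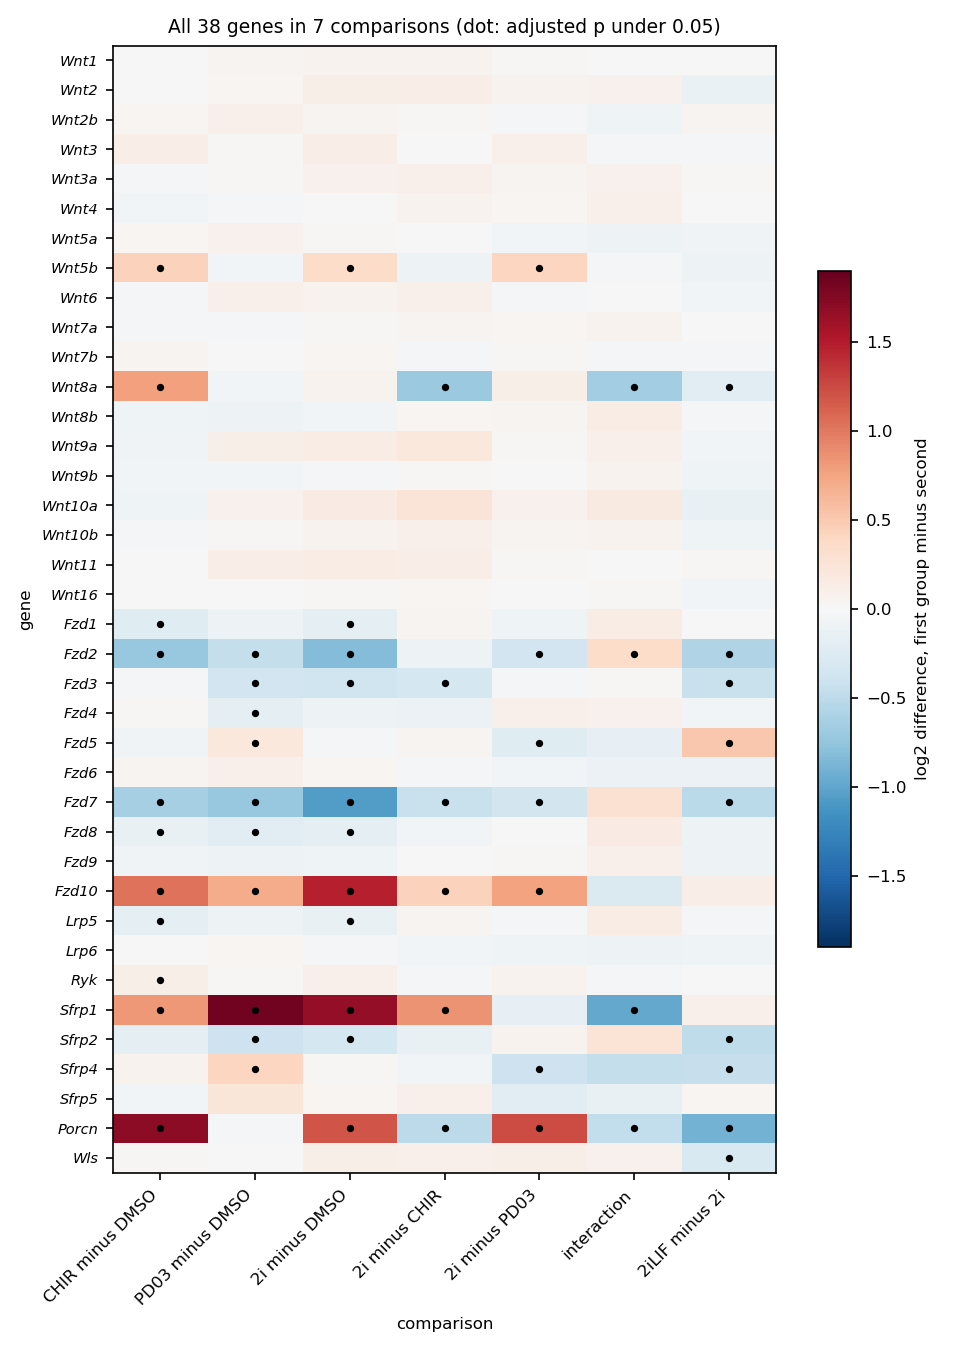
Log2 difference (colour, first group minus second) of the 38 genes (rows) in the 7 comparisons (columns); a dot marks a limma adjusted p under 0.05, and "interaction" is (2i minus PD03) minus (CHIR minus DMSO). The 19 ligand rows are pale apart from Wnt5b and Wnt8a, while Fzd2, Fzd7, Fzd10, Sfrp1 and Porcn are coloured in most columns.

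Porcn, the enzyme that attaches the lipid that Wnt proteins need for secretion and receptor binding, had the largest difference of the 38 genes in CHIR minus DMSO. Its signals were 10.42, 10.39 and 10.37 in CHIR, 9.84, 9.88 and 9.93 in 2i, and 8.99, 8.96 and 9.02 in 2iLIF, against 8.67, 8.68 and 8.60 in PD03 and 8.70, 8.77 and 8.59 in DMSO. All 9 arrays with CHIR99021 read higher than all 6 arrays without it, and only PD03 and DMSO overlapped. Porcn was 3.26-fold higher in CHIR than in DMSO (1.70 ± 0.04, adjusted p = 6.7e-13) and 2.36-fold higher in 2i than in PD03 (1.24 ± 0.04, adjusted p = 3.4e-11). PD0325901 alone left it within the spread of DMSO, at -0.04 ± 0.04 (95% interval -0.13 to 0.06, adjusted p = 0.652). In the presence of CHIR99021 the MEK inhibitor went with a lower level, at -0.50 ± 0.04 in 2i minus CHIR (adjusted p = 2.06e-06). With LIF as well Porcn was lower again, at -0.90 ± 0.04 in 2iLIF minus 2i (adjusted p = 2.41e-09). The 3 groups with CHIR99021 were thus ordered CHIR, 2i and 2iLIF, with no overlap of arrays between neighbours.

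Wls, the carrier that takes lipid-modified Wnt proteins to the cell surface, did not follow Porcn. Its group means lay between 7.54 in 2iLIF and 7.83 in 2i, and it passed in 2iLIF minus 2i alone, at -0.29 ± 0.08 (adjusted p = 0.0311). That call was lost when 2i replicate 1 or 2 or 2iLIF replicate 1 or 2 was left out (adjusted p from 0.0697 to 0.117). In CHIR minus DMSO it was at 0.02 ± 0.08 with a 95% interval of -0.16 to 0.20. The DMSO arrays of Wls were uneven, at 7.97, 7.62 and 7.56. Without DMSO replicate 1 it passed in 2i minus DMSO, at 0.24 (adjusted p = 0.0113).

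**Figure D2:**
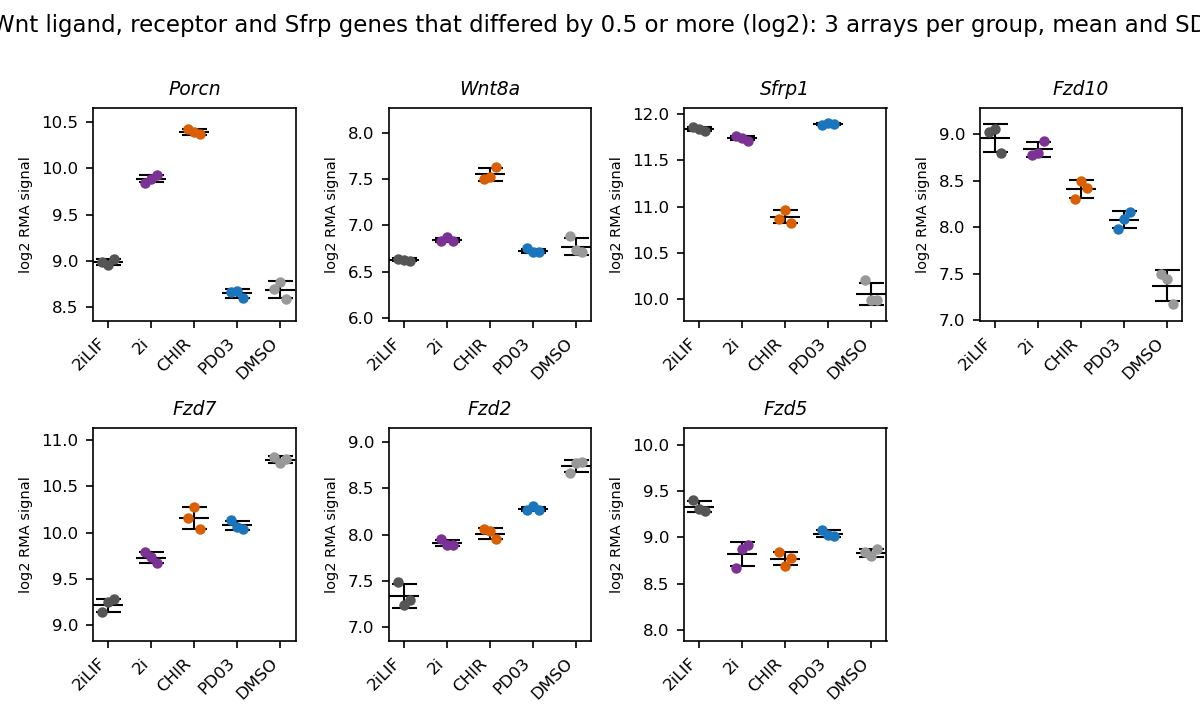
Log2 RMA signal (vertical axis) of the 7 genes that passed with a difference of 0.5 or more, by group (horizontal axis); points are the 3 arrays, and the bars give mean and SD. Porcn and Wnt8a peak in CHIR, Sfrp1 is high in every group with PD0325901, Fzd10 is lowest and Fzd7 and Fzd2 are highest in DMSO, and Fzd5 is highest in 2iLIF.

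Among the ligands Wnt8a, a Wnt of the early embryo's primitive streak, was higher in cells kept in CHIR99021 alone. It read 7.50, 7.52 and 7.63 in CHIR, 6.83, 6.87 and 6.83 in 2i, 6.64, 6.63 and 6.61 in 2iLIF, 6.75, 6.71 and 6.71 in PD03, and 6.88, 6.73 and 6.71 in DMSO. The CHIR arrays stood above all other arrays, the 2iLIF arrays below all others, and 2i overlapped DMSO. It was 1.71-fold higher in CHIR than in DMSO (0.78 ± 0.05, adjusted p = 6.53e-09). Between 2i and PD03 the difference was 0.12 ± 0.05 and did not pass (adjusted p = 0.0852). With LIF kept beside both inhibitors Wnt8a was lower than in 2i, at -0.22 ± 0.05 (adjusted p = 0.00409).

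Wnt5b, a Wnt best known for signalling without beta-catenin, was higher with CHIR99021 whether or not PD0325901 was present. Its signals were 8.35, 8.43 and 8.33 in CHIR, 8.39, 8.20 and 8.25 in 2i, 8.17, 8.21 and 8.16 in 2iLIF, 7.75, 7.94 and 7.92 in PD03, and 7.95, 8.09 and 7.74 in DMSO. The 9 arrays with CHIR99021 again lay above the 6 without it, by a narrow margin. The difference was 0.44 ± 0.08 in CHIR minus DMSO (adjusted p = 4.65e-04), 0.41 ± 0.08 in 2i minus PD03 (adjusted p = 9.93e-04) and 0.35 ± 0.08 in 2i minus DMSO (adjusted p = 0.00217). The interaction of the inhibitors was -0.03 ± 0.11 for Wnt5b, with a 95% interval of -0.26 to 0.19. It did not pass for PD0325901 with or without CHIR99021, nor for LIF.

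Because Wnt5b was the ligand that followed CHIR99021 in both settings, its promoter windows were searched for the TCF/LEF core, the letters through which beta-catenin's DNA-binding partners act. The RefSeq promoter table (GRCm38.p6) holds windows of 300 bases, 250 before and 50 after a start site. Windows of 25 of the 38 genes were searched, and 9 of these genes were among the 17 that passed. Porcn, Wnt8a, Sfrp1 and Fzd2 were not among the 25, so the search did not cover them. Any windows of the 38 genes on 1 chromosome were left out of this search, but not of the share over all windows. The letters searched were CTTTGAT and CTTTGAA on both strands, and 8.65% of all 32851 windows hold at least 1. Wnt5b has 3 windows, and 1 of them, at chr6:119449337-119449636 on the minus strand, holds CTTTGAT from 71 bases before the start site. It is printed 5′ to 3′ with the match in capitals.
Wnt5b: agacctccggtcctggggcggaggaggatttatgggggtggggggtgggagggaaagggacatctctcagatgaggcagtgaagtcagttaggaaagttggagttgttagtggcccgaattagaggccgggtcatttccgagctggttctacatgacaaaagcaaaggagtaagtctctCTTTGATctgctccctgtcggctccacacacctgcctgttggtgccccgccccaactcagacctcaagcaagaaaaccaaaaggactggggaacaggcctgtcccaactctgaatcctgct
The other Wnt5b windows held no match, and the array does not tell which start site its transcripts used. Of the 28 windows searched for the 38 genes, 2 held a match, against 8.65% of all windows, so matches were no more common here. The other match was in 1 Wnt11 window, and Wnt11 passed in no comparison.

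The remaining 17 ligands passed nowhere. They were Wnt1, Wnt2, Wnt2b, Wnt3, Wnt3a, Wnt4, Wnt5a, Wnt6, Wnt7a, Wnt7b, Wnt8b, Wnt9a, Wnt9b, Wnt10a, Wnt10b, Wnt11 and Wnt16. The span of their group means ran from 0.05 to 0.25, and all group means of Wnt1, Wnt5a and Wnt8b were below 6, a level at which a signal may be background. Without detection calls the other ligands are not thereby shown to be above background. For Wnt3, a ligand of the epiblast, CHIR minus DMSO was 0.13 ± 0.09 with a 95% interval of -0.06 to 0.32. For Wnt10a, which had the widest span of these, 2i minus CHIR was 0.25 ± 0.08 (adjusted p = 0.0557). The 19 ligands had a median of -0.01 in CHIR minus DMSO, where all genes had -0.0059. For 2i minus DMSO these medians were 0.07 and 0.02.

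Fzd7, a Wnt receptor that is abundant in pluripotent cells, was lower wherever an inhibitor was kept. It read 10.82, 10.75 and 10.80 in DMSO, 10.16, 10.28 and 10.04 in CHIR, 10.14, 10.06 and 10.04 in PD03, 9.79, 9.74 and 9.67 in 2i, and 9.14, 9.25 and 9.28 in 2iLIF. The groups formed 4 steps without overlap between them: DMSO, then CHIR and PD03 together, then 2i, then 2iLIF. Relative to DMSO the differences were -0.63 ± 0.06 in CHIR (adjusted p = 9.02e-07), -0.71 ± 0.06 in PD03 (adjusted p = 2.6e-07) and -1.06 ± 0.06 in 2i, where DMSO was 2.08-fold higher (adjusted p = 1.37e-09). Each inhibitor also went with a lower level when kept beside the other, at -0.43 ± 0.06 in 2i minus CHIR and -0.35 ± 0.06 in 2i minus PD03 (adjusted p = 1.36e-04 and 4.35e-04). With LIF kept as well Fzd7 was lower than in 2i, at -0.51 ± 0.06 (adjusted p = 1.43e-05). The interaction of the inhibitors was 0.29 ± 0.08 and did not pass (adjusted p = 0.0971).

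Fzd2, a Frizzled of both beta-catenin-dependent and other Wnt responses, had a similar order. Its signals were 8.66, 8.77 and 8.78 in DMSO, 8.27, 8.31 and 8.27 in PD03, 8.06, 8.04 and 7.95 in CHIR, 7.95, 7.89 and 7.89 in 2i, and 7.49, 7.24 and 7.29 in 2iLIF. All 5 groups were separate, although the lowest CHIR array and the highest 2i array both round to 7.95. CHIR minus DMSO was -0.72 ± 0.06 (adjusted p = 1.36e-07), PD03 minus DMSO -0.46 ± 0.06 (adjusted p = 2.26e-05) and 2i minus DMSO -0.83 ± 0.06 (adjusted p = 1.62e-08). Keeping PD0325901 beside CHIR99021 went with -0.10 ± 0.06, which did not pass (95% interval -0.22 to 0.02, adjusted p = 0.314). Keeping LIF beside both went with -0.57 ± 0.06 (adjusted p = 3.63e-06).

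Fzd10, another Frizzled that can signal through beta-catenin, moved against Fzd7 and Fzd2. It read 9.03, 9.06 and 8.80 in 2iLIF, 8.78, 8.80 and 8.93 in 2i, 8.30, 8.50 and 8.42 in CHIR, 7.98, 8.09 and 8.16 in PD03, and 7.49, 7.44 and 7.17 in DMSO. The 2iLIF and 2i arrays overlapped, and the other steps were separate. It was 2.77-fold higher in 2i than in DMSO (1.47 ± 0.09, adjusted p = 2.97e-09), with 1.04 ± 0.09 in CHIR minus DMSO (adjusted p = 2.78e-07) and 0.71 ± 0.09 in PD03 minus DMSO (adjusted p = 1.99e-05). Each inhibitor kept beside the other went with a higher level too, at 0.76 ± 0.09 in 2i minus PD03 (adjusted p = 1e-05) and 0.43 ± 0.09 in 2i minus CHIR (adjusted p = 0.00358). LIF gave 0.12 ± 0.09, which did not pass (95% interval -0.06 to 0.31).

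The promoter windows of Fzd7 and Fzd10 are shown because these receptors moved in opposite directions in the same 5 comparisons. Neither held CTTTGAT or CTTTGAA, so no letters are in capitals. The Fzd7 window, chr1:59481897-59482196 on the plus strand of GRCm38.p6, has 24 CG dinucleotides, and the Fzd10 window, chr5:128600856-128601155 on the plus strand, has 45, against a median of 7 over all windows. The other Frizzled windows searched, of Fzd1, Fzd4, Fzd5 and Fzd9, have 16, 32, 38 and 53, so high counts are not particular to Fzd7 and Fzd10. The Fzd7 and Fzd10 windows are printed 5′ to 3′.
Fzd7: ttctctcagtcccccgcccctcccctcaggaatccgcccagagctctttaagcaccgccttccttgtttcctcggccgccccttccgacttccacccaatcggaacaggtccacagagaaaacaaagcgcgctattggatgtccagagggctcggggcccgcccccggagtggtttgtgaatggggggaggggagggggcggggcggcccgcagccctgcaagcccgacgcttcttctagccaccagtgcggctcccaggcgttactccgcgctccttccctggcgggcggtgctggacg
Fzd10: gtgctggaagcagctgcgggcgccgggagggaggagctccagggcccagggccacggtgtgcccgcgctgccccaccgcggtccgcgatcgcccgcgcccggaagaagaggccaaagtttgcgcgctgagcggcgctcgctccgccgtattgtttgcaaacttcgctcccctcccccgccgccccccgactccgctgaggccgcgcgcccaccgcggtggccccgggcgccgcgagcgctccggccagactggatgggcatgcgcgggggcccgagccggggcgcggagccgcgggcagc

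Fzd5, a receptor of the early embryo and yolk sac, was highest with LIF. It read 9.40, 9.31 and 9.28 in 2iLIF, 9.08, 9.03 and 9.01 in PD03, 8.84, 8.80 and 8.87 in DMSO, 8.67, 8.87 and 8.92 in 2i, and 8.84, 8.69 and 8.78 in CHIR. The 2iLIF arrays were above all others and the PD03 arrays above the remaining groups, while DMSO, 2i and CHIR overlapped. The difference was 0.51 ± 0.06 in 2iLIF minus 2i (adjusted p = 1.75e-05), the opposite sign to Fzd2, Fzd3 and Fzd7 in the same comparison. It was 0.21 ± 0.06 in PD03 minus DMSO (adjusted p = 0.0225) and -0.22 ± 0.06 in 2i minus PD03 (adjusted p = 0.0128). The first of these calls was lost without DMSO replicate 1 or 2 or PD03 replicate 1 or 2 (adjusted p from 0.0506 to 0.0881). The second was lost without PD03 replicate 1 (adjusted p = 0.0561) and without 2i replicate 1, where it was -0.15 (adjusted p = 0.0635).

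Fzd3, known for its role in axon guidance and planar polarity, followed PD0325901 rather than CHIR99021. Its means were 7.34 in DMSO and 7.30 in CHIR, 6.98 in PD03 and 6.96 in 2i, and 6.54 in 2iLIF. The groups with PD0325901 lay below those without it on every array. PD03 minus DMSO was -0.36 ± 0.05 (adjusted p = 9.41e-05) and 2i minus CHIR -0.34 ± 0.05 (adjusted p = 3.57e-04), while CHIR minus DMSO was -0.04 ± 0.05 (95% interval -0.14 to 0.07). LIF gave -0.42 ± 0.05 (adjusted p = 2.92e-05).

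The other Frizzled genes, which encode further Wnt receptors, differed less. Fzd8 was lower than in DMSO in PD03, 2i and CHIR, at -0.20 ± 0.04, -0.19 ± 0.04 and -0.14 ± 0.04 (adjusted p = 9.17e-04, 9.16e-04 and 0.0109). The last of these was lost when arrays were centred on their medians (-0.11, adjusted p = 0.0857). Fzd1 was at -0.23 ± 0.05 in CHIR minus DMSO (adjusted p = 0.00495). In 2i minus DMSO Fzd1 was at -0.18 ± 0.05 (adjusted p = 0.021), a call lost without 2i replicate 2 or DMSO replicate 1 and in a fit of those groups alone (adjusted p from 0.0545 to 0.11). Fzd4 passed in PD03 minus DMSO alone, at -0.19 ± 0.06 (adjusted p = 0.0433), and lost that call in 13 of 21 alternative settings, with -0.12 without DMSO replicate 1 (adjusted p = 0.194). Fzd6 and Fzd9 passed in no comparison. Over the 10 Frizzled genes the median was -0.15 in PD03 minus DMSO, where 2 were higher (background 8.67%) and 5 lower (background 8.15%). In 2i minus DMSO it was -0.14, with 1 higher (background 13.6%) and 5 lower (background 11.9%). The medians over all genes were 0.0045 and 0.02.

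**Figure D3:**
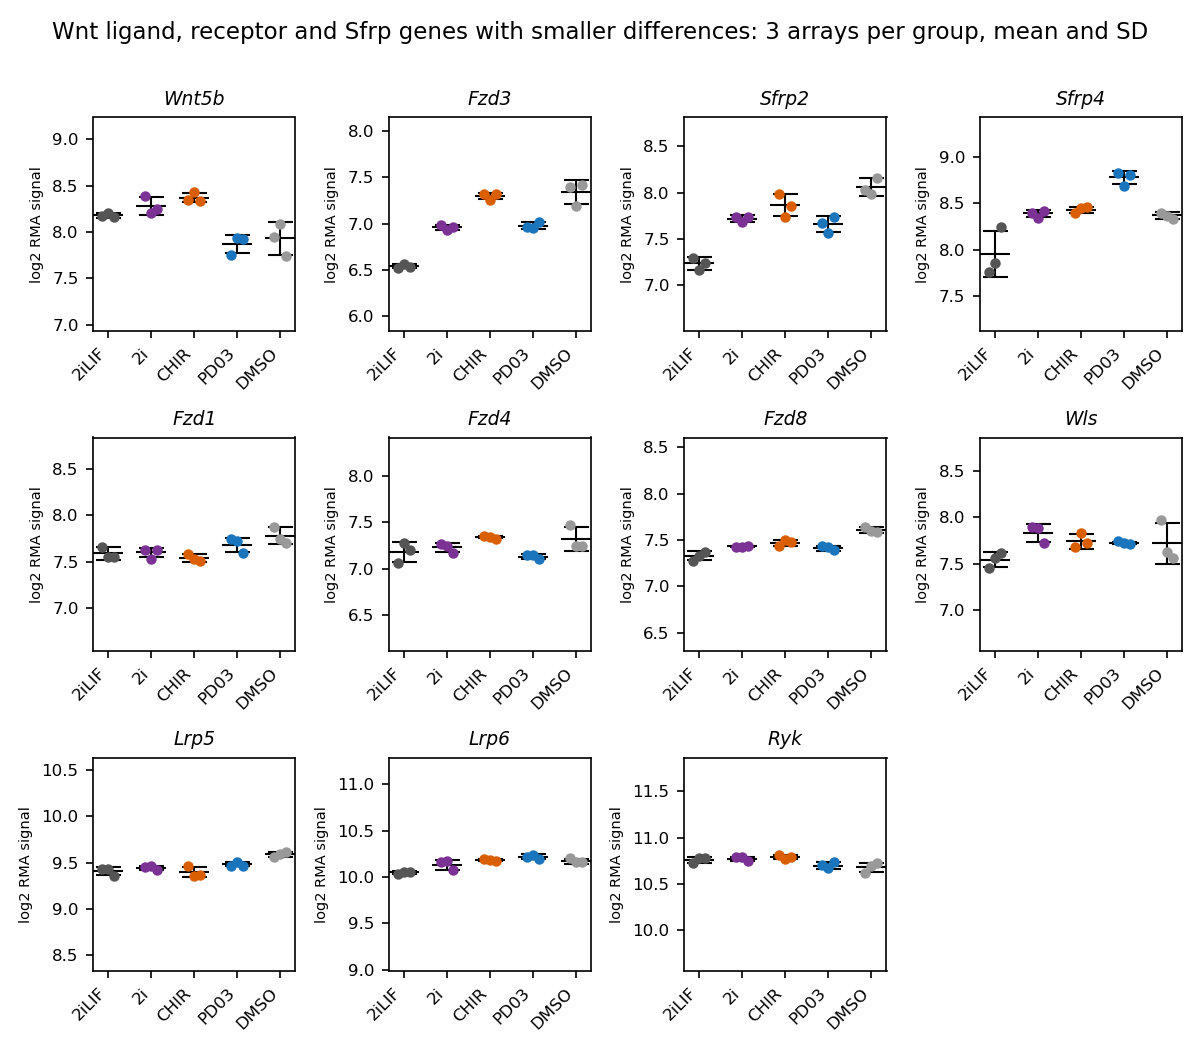
Log2 RMA signal (vertical axis, the same height of 2.3 log2 units in each panel) of 11 genes with smaller differences, by group (horizontal axis); points are the 3 arrays, and the bars give mean and SD. Fzd3 is lower in the groups with PD0325901, Wnt5b is higher in those with CHIR99021, and Lrp5, Lrp6 and Ryk are nearly level.

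The coreceptors differed little between groups. Lrp6, which Wnt proteins bind together with Frizzled, read between 10.03 and 10.24 on all 15 arrays and passed in none of the comparisons. Its difference was 0.01 ± 0.03 in CHIR minus DMSO (95% interval -0.07 to 0.08) and -0.04 ± 0.03 in 2i minus DMSO (95% interval -0.11 to 0.03). The 2iLIF arrays of Lrp6 (10.03, 10.06 and 10.06) lay below all others, at -0.09 ± 0.03 against 2i (adjusted p = 0.138). Lrp5, its close relative, read 9.56, 9.59 and 9.62 in DMSO and between 9.36 and 9.51 on the other 12 arrays. Lrp5 was at -0.19 ± 0.04 in CHIR minus DMSO (adjusted p = 0.00127), and for 2i minus DMSO it was at -0.15 ± 0.04 (adjusted p = 0.00671). Ryk, an atypical tyrosine kinase receptor of Wnt proteins, was at 0.11 ± 0.04 in CHIR minus DMSO (adjusted p = 0.0382). That call was lost in 8 of 21 alternative settings, with 0.08 without DMSO replicate 1 (adjusted p = 0.163).

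Sfrp1 was the secreted inhibitor with the largest difference, and it followed PD0325901. It read 11.88, 11.90 and 11.89 in PD03, 11.86, 11.84 and 11.82 in 2iLIF, 11.76, 11.74 and 11.71 in 2i, 10.87, 10.97 and 10.82 in CHIR, and 10.21, 9.99 and 9.99 in DMSO. All 5 groups were separate: the 9 arrays with PD0325901 lay between 11.71 and 11.90 and above the CHIR arrays, which were above DMSO. Sfrp1 was 3.55-fold higher in PD03 than in DMSO (1.83 ± 0.05, adjusted p = 2.67e-12) and 3.20-fold higher in 2i than in DMSO (1.68 ± 0.05, adjusted p = 3.7e-12). With CHIR99021 alone Sfrp1 was 0.82 ± 0.05 above DMSO (1.77-fold, adjusted p = 1.68e-08), a smaller difference. With PD0325901 present, CHIR99021 gave -0.15 ± 0.05 (adjusted p = 0.0529), and PD0325901 in the presence of CHIR99021 gave 0.85 ± 0.05 (adjusted p = 4.78e-08). LIF gave 0.10 ± 0.05, which did not pass (adjusted p = 0.288). The neural markers averaged 7.89 to 8.04 in PD03, 7.57 to 7.75 in DMSO and 7.24 to 7.29 in 2iLIF, and their part in the Sfrp1 levels was not tested.

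Sfrp2 and Sfrp4, relatives of Sfrp1, each had a pattern of their own. Sfrp2 was highest in DMSO, with means of 8.06 there, 7.87 in CHIR, 7.72 in 2i, 7.66 in PD03 and 7.24 in 2iLIF. It was lower than DMSO in PD03 (-0.40 ± 0.07, adjusted p = 3.85e-04) and in 2i (-0.33 ± 0.07, adjusted p = 0.00112), and LIF gave a further -0.49 ± 0.07 (adjusted p = 8.8e-05). Sfrp4 was highest in PD03, at 8.83, 8.69 and 8.81, while all arrays of 2i, CHIR and DMSO lay between 8.33 and 8.46. Its difference was 0.41 ± 0.08 in PD03 minus DMSO (adjusted p = 0.00256) and -0.39 ± 0.08 in 2i minus PD03 (adjusted p = 0.00338). The 2iLIF arrays of Sfrp4 were uneven, at 7.76, 7.86 and 8.24, and 2iLIF minus 2i was -0.43 ± 0.08 (adjusted p = 0.00232). Sfrp5 passed in no comparison.

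The response to one inhibitor could be compared with and without the other. Both comparisons of CHIR99021 share no array with each other: CHIR minus DMSO had 11 of the 38 genes passing, while 2i minus PD03 had 7. The 5 that passed in both, Porcn, Fzd10, Wnt5b, Fzd2 and Fzd7, had the same sign in both. They are 45.5% of the first set and 71.4% of the second. Over all genes, those that passed in both with the same sign were 58.0% and 61.8% of the corresponding sets. For PD0325901, 10 passed in PD03 minus DMSO and 6 in 2i minus CHIR, and the 4 in both, Sfrp1, Fzd10, Fzd3 and Fzd7, again had the same sign. They are 40.0% and 66.7% of those sets, against 40.6% and 72.1% over all genes. Agreement in sign was general on the array, at 98.6% and 99.3% of all genes that passed in both, so nothing here is particular to the Wnt genes.

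**Figure D4:**
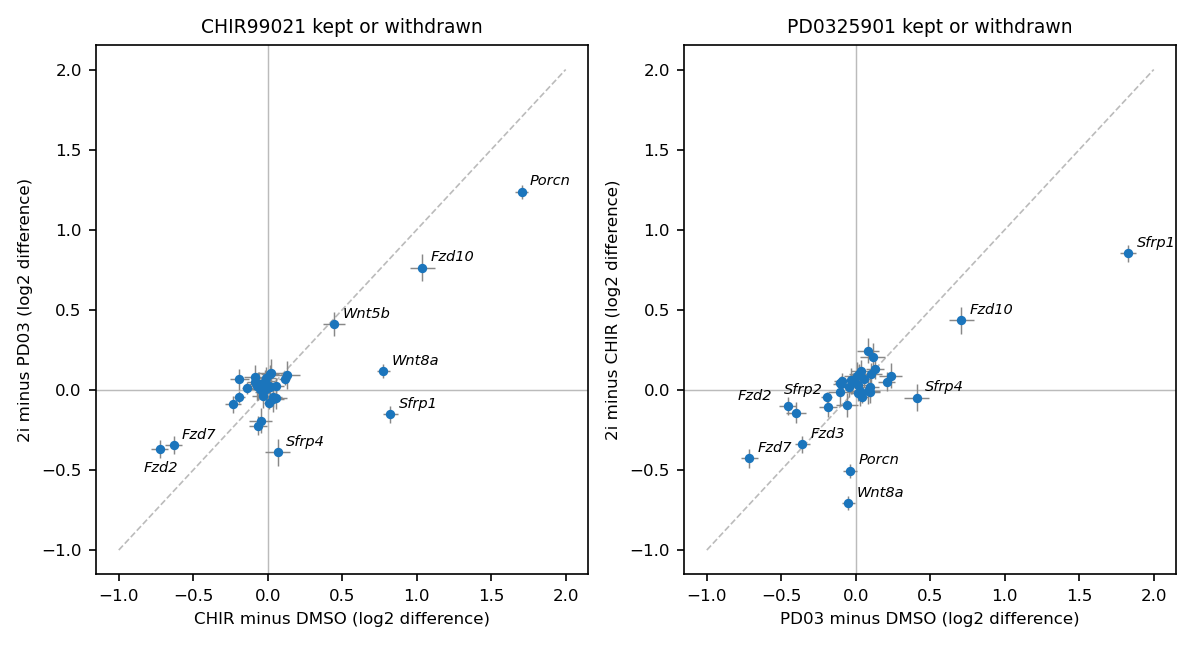
Log2 differences of the 38 genes for CHIR99021 (left) and PD0325901 (right), with the other inhibitor absent on the horizontal axis and present on the vertical axis; bars are SE, and the dashed line marks equal differences. Porcn, Wnt8a and Sfrp1 lie below the line on the left, with 1.70, 0.78 and 0.82 when PD0325901 was absent against 1.24, 0.12 and -0.15 when it was present.

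The interaction, (2i minus PD03) minus (CHIR minus DMSO), tests whether the response to CHIR99021 differed with PD0325901 present. It passed for 4 of the 38 genes, against 2.04% of all genes, with 1 higher (background 0.933%) and 3 lower (background 1.10%). Sfrp1 had -0.98 ± 0.07 (adjusted p = 2.59e-06), Wnt8a -0.66 ± 0.06 (adjusted p = 3.67e-05) and Porcn -0.47 ± 0.06 (adjusted p = 6.85e-04). For Porcn the response to CHIR99021 remained large in both settings, and for Wnt8a it passed only with PD0325901 absent. Fzd2 had 0.35 ± 0.08 (adjusted p = 0.029), as its negative difference for CHIR99021 was smaller with PD0325901 present. This call was lost when any 1 of 10 arrays was left out (adjusted p from 0.0504 to 0.0828). The 4 values use the same arrays as the single comparisons and are not separate evidence of them.

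Other genes that act on Wnt signals at or near the membrane were taken from 3 lists. Of 18 measured extracellular antagonists, 1 was higher and 1 lower in CHIR minus DMSO (11.1%, against 20.8% of all genes). In PD03 minus DMSO 3 were higher and none lower (16.7%, against 16.8%), and in 2i minus DMSO 4 were higher and none lower (22.2%, against 25.5%). None of these shares was above that of all genes. Notum, an enzyme that removes the lipid from Wnt proteins, read 7.83, 7.97 and 8.05 in DMSO, 8.28, 8.17 and 8.26 in CHIR, 8.76, 8.79 and 8.71 in PD03, 8.78, 8.82 and 8.92 in 2i, and 8.87, 9.03 and 8.88 in 2iLIF. The groups with PD0325901 stood highest, as for Sfrp1, at 0.80 ± 0.06 in PD03 minus DMSO (adjusted p = 8.68e-08), with 0.29 ± 0.06 in CHIR minus DMSO (adjusted p = 0.00182). Dkkl1, a relative of the Dickkopf inhibitors, was 1.00 ± 0.08 higher in 2iLIF than in 2i (adjusted p = 6.4e-07). Shisa2, which holds back Frizzled maturation, was at -0.31 ± 0.07 in that comparison, and Igfbp4 at 0.29 ± 0.05 in PD03 minus DMSO (adjusted p = 0.00961 and 0.00131). The Shisa2 call was lost without 2iLIF replicate 2 and in a fit of those groups alone (adjusted p of 0.0501 and 0.0649).

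Of 19 other receptors, coreceptors and R-spondin pathway genes, 3 were higher and 1 lower in CHIR minus DMSO, a share of 21.1% against 20.8% of all genes. In PD03 minus DMSO 3 were higher and 2 lower (26.3%, against 16.8%), and in 2iLIF minus 2i 1 was higher and 4 lower (26.3%, against 12.2%). Ror1 and Ror2 encode receptor tyrosine kinases that bind Wnt5a. Ror2 read between 9.12 and 9.35 on the 9 arrays with CHIR99021 and between 8.40 and 8.79 on the 6 without it. It was at 0.74 ± 0.08 in CHIR minus DMSO (adjusted p = 3.71e-06) and 0.61 ± 0.08 in 2i minus PD03 (adjusted p = 3.73e-05). Ror1 had means of 7.57 in 2iLIF and 8.84 in 2i, a difference of -1.27 ± 0.10 (adjusted p = 3.6e-07). Lgr4, a receptor of R-spondins, was 0.40 ± 0.04 higher in PD03 than in DMSO (adjusted p = 5.38e-06), and Reck, which takes part in Wnt7 recognition, was at -0.44 ± 0.04 in 2iLIF minus 2i (adjusted p = 1.62e-06).

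Of 16 cytoplasmic and planar polarity genes, 2 were higher and 2 lower in CHIR minus DMSO (4 of 16, against 20.8% of all genes), and 2 higher and 4 lower in 2i minus DMSO (37.5%, against 25.5%). Prickle2, a planar polarity protein, had means of 7.72 in 2i, 7.55 in 2iLIF and 7.39 in PD03, against 6.85 in CHIR and 6.62 in DMSO. Its difference was 1.09 ± 0.07 in 2i minus DMSO (adjusted p = 1.32e-08). Vangl1, a membrane protein of the same pathway, was higher than DMSO in PD03, at 0.50 ± 0.04 (adjusted p = 4.5e-07). Nkd1 and Nkd2, Dishevelled-binding inhibitors, were at -0.27 ± 0.05 and -0.28 ± 0.06 in 2i minus DMSO (adjusted p = 2.56e-04 and 0.0042). The medians of the 3 lists lay between -0.06 and 0.07 over the 7 comparisons, where those of all genes lay between -0.01 and 0.02.

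**Figure D5:**
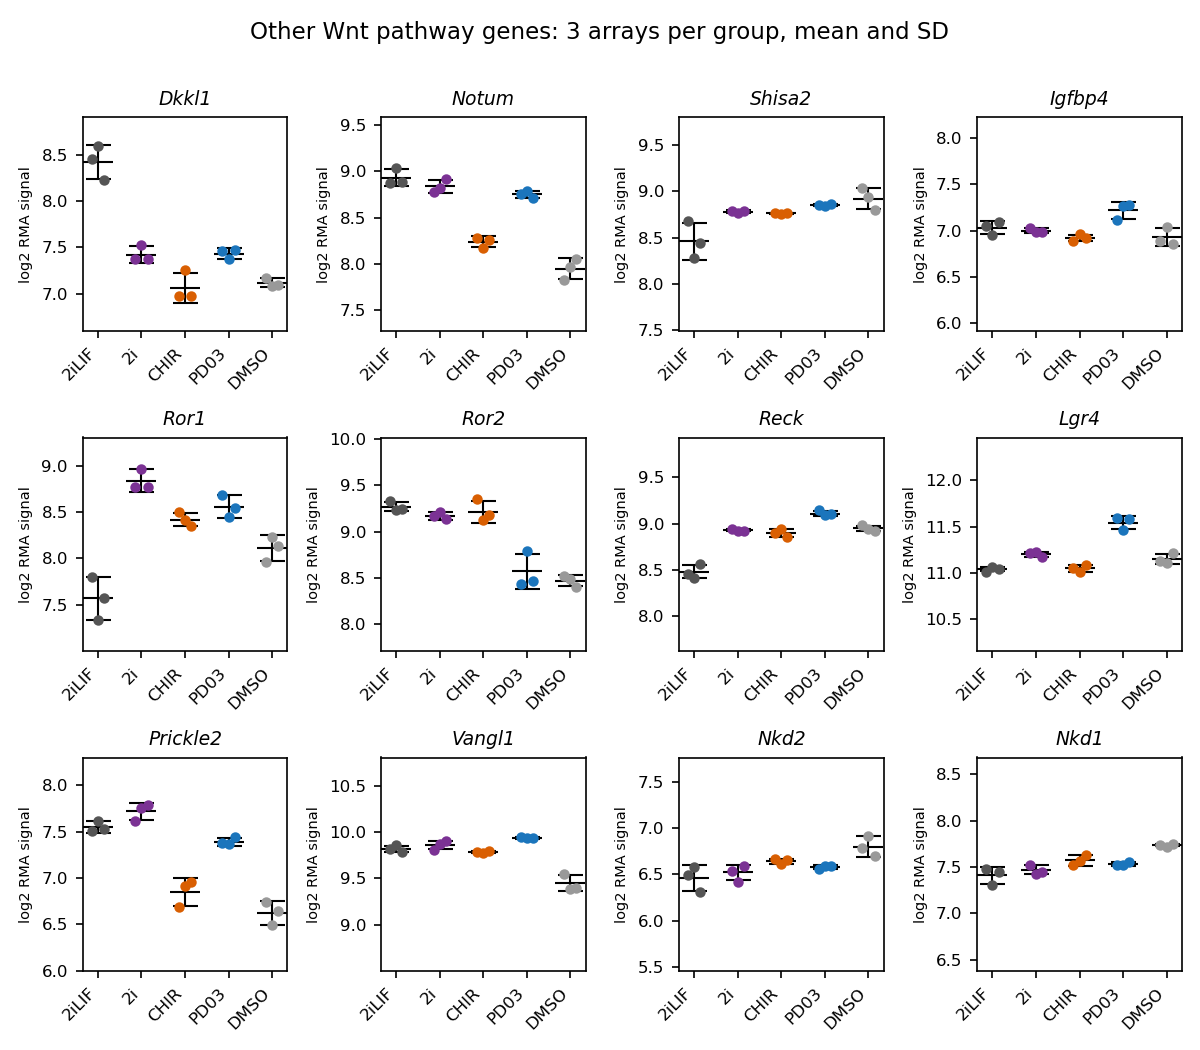
Log2 RMA signal (vertical axis) of 12 other Wnt pathway genes by group (horizontal axis); points are the 3 arrays, and the bars give mean and SD. Notum and Prickle2 are high in the groups with PD0325901, Ror2 is high in those with CHIR99021, and Ror1 and Dkkl1 differ between 2iLIF and 2i in opposite directions.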

How the data were processed

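Total RNA of 15 samples was measured. The deposited log2 values were summarised per probe set with RMA, per the submitters' processing notes; no version is given there. RMA makes array distributions alike, which hides any shift common to most genes, and compresses differences of dim genes. The table held 34760 probe sets, with array medians of 6.98 to 7.06, and 0 value columns were unused. The platform annotation gave 21640 of them exactly 1 symbol, 1321 several and 11799 none here; 21553 of the 21640 matched RefSeq by gene identifier. The set with the highest mean stood for a gene. No detection calls were used.

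A means model over 5 groups was fitted over all 15 arrays using limma 3.58.1 in R 4.3.3 (lmFit, eBayes), two-sided, with Benjamini-Hochberg adjustment over 19937 genes; 95% intervals used its moderated standard errors. The 3 arrays per group limit precision: the median SE was 0.0509, and 0.072 for the interaction. Nothing in the labels tells whether replicates were separate cultures, so p-values may measure technical spread. Genes were described array by array when they passed with 0.5 or more in any of 7 comparisons. Porcn, Wls, Lrp5 and Lrp6 were described whatever their result. Of the other lists, up to 4 genes each were named, those passing with the largest difference. Members and lists were chosen with earlier results of these data known. The procedure was tested on simulated data. Motifs were searched by exact match.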

Additional observations from a re-analysis of the deposited data

Results flagged for a closer look

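For 4 genes the response to CHIR99021 differed with PD0325901 present, by the interaction term of the limma fit. The interaction was -0.98 for Sfrp1, where CHIR99021 gave 0.82 without PD0325901 and -0.15 with it. It was -0.66 for Wnt8a (0.78 without and 0.12 with) and -0.47 for Porcn (1.70 without and 1.24 with). It was 0.35 for Fzd2 (-0.72 without and -0.37 with), where the limma call was lost when any 1 of 10 arrays was left out (adjusted p from 0.0504 to 0.0828). Groups of 3 arrays are too small for a test of single outlying arrays.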

How the results depend on the processing

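Counts of passing genes, and the differences of named genes that passed, were followed under 21 alternatives. They left out each of the 15 arrays, or used a replicate block, a minimum group mean of 6 or the mean of a gene's probe sets. Others used a trended and robust variance prior, centred arrays on their medians, or fitted only the groups compared. Differences that did not pass were followed for Porcn, Wls, Lrp5 and Lrp6 alone. Marker means, list shares and medians were not followed. No alternative reversed a difference that was followed. Some differences that had not passed gained a call. Among the 38 genes the count reached 9 in 2i minus PD03 (7 in the main fit) and 6 for the interaction (4 in the main fit). Of 58 differences that passed among the 38 genes, 50 passed under all 21; the other 8 (2 of Fzd5, and 1 each of Fzd1, Fzd2, Fzd4, Fzd8, Ryk and Wls) are given in the report. Of 49 that passed among the other named genes, 36 did. The count of all genes with an interaction was 406, and it ran from 255 to 437 when 1 array was left out, with 255 without PD03 replicate 3 and 269 without PD03 replicate 1. The other counts stayed within 1.5 times. Same-numbered arrays deviated from their group means with correlations from -0.36 to 0.34 over genes, and 10 of 30 pairs exceeded 0.1. Pairs with other numbers ran from -0.43 to 0.44, and 22 of 60 exceeded 0.1, so the numbers gave no sign of pairing the samples. Whether arrays share a batch that the labels do not name was not tested. With the replicate block the counts among the 38 genes were 11, 9, 11, 6, 7, 4 and 9, against 11, 10, 11, 6, 7, 4 and 9 without it (comparisons with DMSO of CHIR, PD03 and 2i, then 2i against CHIR and against PD03, the interaction, and 2iLIF against 2i). Dim probe sets limit what can be said of most ligands: with no detection calls, a flat low signal is not evidence of absent transcript.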
